A study of Mus musculus with 82 samples.

Results

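Of the 14903 Adnp peaks that the authors placed on mouse chromosomes 1 to 19, 831 (5.58%, 95% Wilson interval 5.22 to 5.96) lay 50 kb or more from any protein-coding gene and overlapped no long noncoding RNA (lncRNA) gene. Both criteria were read from the RefSeq annotation of GRCm38 (mm10), the build of the peak lists, and neither used the height or width of a peak. A further 261 peaks passed the distance criterion but lay inside an lncRNA gene and were left out. Among the other autosomal peaks, 7401 overlapped a protein-coding gene, 5541 lay between genes and under 50 kb from one, and 869 lay under 50 kb from one and inside an lncRNA gene.

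Adnp is a zinc finger and homeodomain protein that binds DNA and, with the chromatin remodeller Chd4 and HP1 proteins, forms a complex known as ChAHP. HP1γ, the product of Cbx3, is a reader of methylated histone H3 lysine 9. The long stretches between genes in mammals are known to hold distal enhancers of developmental genes as well as repeats and transposable elements.

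Chromatin immunoprecipitation with sequencing (ChIP-seq) recovered tagged proteins on streptavidin beads from mouse embryonic stem cells, a 129-C57BL/6 hybrid line grown in 2i and LIF. The Adnp list belongs to 3 replicates of untreated cells of genotype Adnp FlagAvi, in which Adnp carries the tag. The HP1γ list belongs to untreated cells with the tag on HP1γ, 3 replicates of Cbx3 FlagAvi and 3 of Cbx3 FlagAvi, Adnp KO, and by its name holds peaks without the Adnp motif. Each is 1 list with no value per replicate, so no replicate error can be given and depth is unknown, and the genotype behind an HP1γ peak is not known because its name refers to the Adnp knockout while the design names both.

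Sequence could be shown for 2 of the 831 peaks, those that reached the 300-base start window of a gene in the RefSeq tables (GRCm38.p6). Both are starts of lncRNA genes, so these peaks are distant from protein-coding genes while sitting against a noncoding start. The windows are printed 5′ to 3′ on the strand of the gene, with the bases inside the Adnp peak in capitals.

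Gm15290 (chr13:111549860-111550159, minus strand): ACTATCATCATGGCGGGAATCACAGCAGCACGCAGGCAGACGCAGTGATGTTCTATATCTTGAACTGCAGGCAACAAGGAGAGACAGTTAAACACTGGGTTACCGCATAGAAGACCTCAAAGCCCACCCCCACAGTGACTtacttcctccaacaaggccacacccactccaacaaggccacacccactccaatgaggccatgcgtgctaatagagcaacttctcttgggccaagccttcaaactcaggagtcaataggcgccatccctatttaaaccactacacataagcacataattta

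Gm32587 (chr14:18463360-18463659, plus strand): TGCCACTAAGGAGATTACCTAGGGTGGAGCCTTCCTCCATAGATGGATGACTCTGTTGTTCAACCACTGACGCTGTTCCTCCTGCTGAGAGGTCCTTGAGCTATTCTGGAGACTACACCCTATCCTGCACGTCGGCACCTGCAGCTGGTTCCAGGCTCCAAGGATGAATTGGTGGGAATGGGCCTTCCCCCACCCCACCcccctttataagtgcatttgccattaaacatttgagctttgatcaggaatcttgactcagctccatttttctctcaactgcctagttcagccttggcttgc

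The peak beside Gm15290 covered 140 bases of its window, stopped 111 bp from the gene and had a score of 23.3. Its neighbours on chromosome 13 are described below, because it belonged to one of the densest groups of these peaks. The peak beside Gm32587 covered 199 bases, stopped 52 bp from the gene and had a score of 10.3. It lay 110 kb from the nearest protein-coding gene, between Ube2e1 and Ube2e2, which encode ubiquitin-conjugating enzymes. The Gm15290 window had a GC content of 49.3% and 6 CG pairs, and the Gm32587 window 51.3% and 3. Over all 32851 windows in the table the medians were 52.7% and 7, so both windows held fewer CG pairs than the median.

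The 831 peaks were thinly spread. Chromosomal sequence that is 50 kb or more from protein-coding genes and outside lncRNA genes made up 741 of 2403 Mb, or 30.8%, and held 5.58% of the peaks. Density there was 1.12 Adnp peaks per Mb (95% Poisson interval 1.05 to 1.20), against 8.47 in the rest of the autosomes, a ratio of 0.13. The ratio was below 1 in 19 of 19 autosomes, from 0.07 on chromosome 15 to 0.24 on chromosomes 13 and 19. Chromosomes 19 and 8 had the highest densities of distant peaks, 1.98 and 1.89 per Mb. Chromosomes 15 and 3 had the lowest, 0.63 and 0.64. Of the HP1γ peaks, 341 of 1994 (17.1%) met the same criteria, a density of 0.46 per Mb against 0.99 elsewhere. Both lists thus had fewer peaks per Mb far from genes, with ratios of 0.13 for Adnp and 0.46 for HP1γ. By its name the HP1γ list holds only peaks without the Adnp motif, so the ratios do not compare the 2 proteins. These densities are descriptions with no test. They were not corrected for unsequenced or unmappable bases, whose part in the ratios was not tested.

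**Figure D1:**
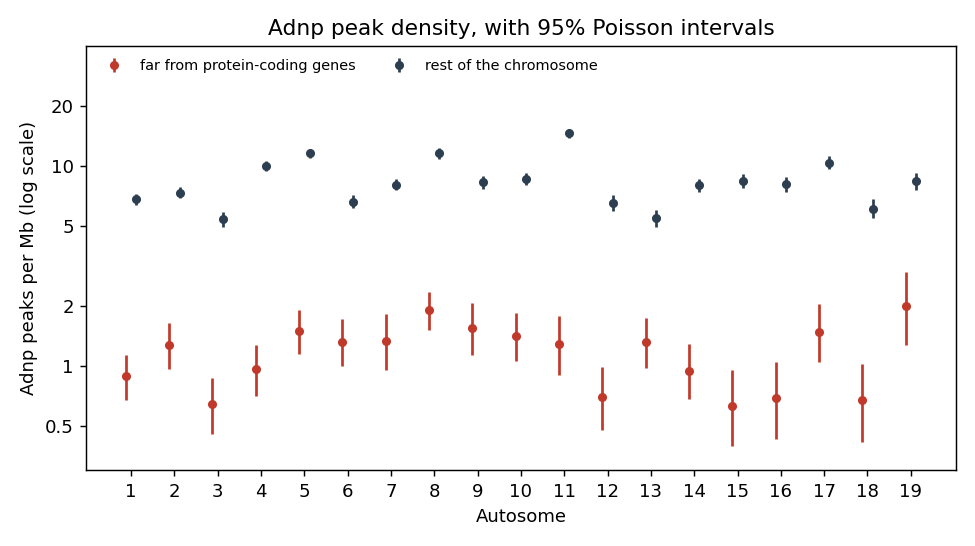
Adnp peaks per Mb (log scale) in sequence far from protein-coding genes and in the rest of each of the 19 autosomes, with 95% Poisson intervals that cover counting error only. The distant density lies below the other in every autosome, between 0.63 and 1.98 peaks per Mb.

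Distance to the nearest protein-coding gene ranged from 50.1 to 1348 kb, with a median of 94.4 kb and quartiles of 66.0 and 147 kb. The gene on the farther side lay at a median of 221 kb, and the whole stretch between the flanking genes was 333 kb long at the median. Of the 831, 383 (46.1%) were 100 kb or more from a gene, 118 (14.2%) were 200 kb or more away, and 11 (1.32%) were 500 kb or more away. The nearest gene was on the lower-coordinate side for 412 peaks and on the other side for 419. Sides were taken by coordinate, and the strand of the flanking genes was not used. A single peak, near the end of chromosome 11, had a gene on 1 side only. In all, 563 different protein-coding genes were nearest to a peak.

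The rule kept protein-coding genes at a distance but allowed lncRNA genes at any distance above 0. The median distance to an lncRNA gene was 29.7 kb, 192 peaks (23.1%) had one within 10 kb, and 18 had one within 1 kb. Another 10 peaks overlapped a gene of a different class, namely 6 in pseudogenes, 3 in transcribed pseudogenes and 1 in a small nuclear RNA gene.

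The distance threshold passed through a continuum. The members nearest to it lay beside Rab4a (50.1 kb away, score 37.8), Cep170 (50.3 kb, 8.30) and B3galnt1 (50.4 kb, 21.2). The nearest peaks left out were those at 49.994 kb from Col13a1 (12.7), 49.968 kb from 3110040M04Rik (12.5) and 49.953 kb from Clmp (11.02).

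Peak scores are the authors' own value per peak, with the kind of score not stated. The 831 distant peaks had a median score of 20.7 (quartiles 13.6 and 32.4), and the other 14072 autosomal peaks 21.2 (13.9 and 33.7). Ranges overlapped almost fully, although the highest distant peak reached 211 and the highest of the others 565. Each autosome gave 1 paired difference in median score, which averaged -1.28 ± 0.419 (SE, n = 19 autosomes), with the distant peaks lower in 15 of 19. The adjusted p was 0.0186 in a two-sided permutation test over autosomes with Benjamini-Hochberg adjustment over 5 comparisons. The difference did not hold with a threshold of 25 kb, where it was -0.815 (permutation test, adjusted p = 0.272). In the higher-scoring 50% of the list it was -0.016 (permutation test, adjusted p = 0.983). That setting cuts both groups at the same score, so it cannot show whether the score difference holds. The difference was larger at 100 kb (-2.23) and with neighbouring peaks joined (-2.07). A joined group keeps its highest score, and the other peaks had a neighbour to join more often. The joined value thus partly restates that difference in neighbours. Among the 100 highest Adnp peaks of the autosomes 3 were distant ones (3%, Wilson 1.03 to 8.45). Among the highest 1000 there were 52 (5.2%, Wilson 3.99 to 6.76). Both intervals include 5.58%, the share of distant peaks among all autosomal ones, so these counts show no difference.

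Within the distant peaks, median scores were highest in the class nearest to genes and lowest in the farthest, without falling at every step. The median was 23.3 at 50 to 75 kb (281 peaks), 21.3 at 75 to 100 kb (167), 18.7 at 100 to 200 kb (265), 19.9 at 200 to 500 kb (107) and 14.1 beyond 500 kb (11). Spearman's rho between distance and score was -0.11 over the 831 peaks, a description over peaks of 1 list, which are not replicates. Median width was lower at each step, from 415 to 398, 378, 361 and 338 bp from the nearest to the farthest class, with a rho of -0.17. Score and width were themselves related (rho 0.57). Against the other peaks, the median width was 389 bp compared with 397 bp, and the mean difference over autosomes was -5.5 ± 5.30 bp (SE, n = 19). That difference did not pass the permutation test (adjusted p = 0.317), with distant peaks narrower in 11 of 19 autosomes and 1 tie. It passed for peaks 100 kb or more from genes (-17.6 bp), against between-gene peaks under 50 kb (-16.8 bp) and with neighbouring peaks joined (-30.4 bp). A joined region includes the gaps between its peaks, and the other peaks were joined more often. The joined width thus partly restates the difference in neighbours.

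**Figure D2:**
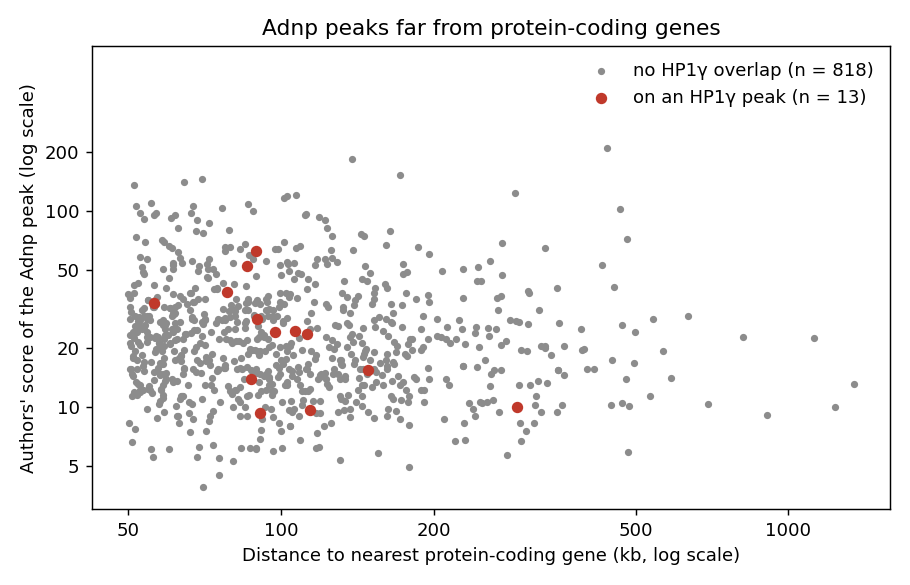
The authors' score against distance to the nearest protein-coding gene in kb, both on log scales, for the 831 distant Adnp peaks; larger red points are the 13 that overlap an HP1γ peak. Of the 831, 118 (14.2%) are 200 kb or more from a gene, and the highest score, 211, lies at 440 kb. The peaks on HP1γ peaks reach a score of 62.5 at most. None of the 11 farthest is on an HP1γ peak, against 1.56% of the 831, and 11 peaks are too few to show a difference.

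The highest peak, with a score of 211 and rank 33 in the list, lay at 44290101 to 44290735 on chromosome 13. It was 440 kb from Jarid2, which encodes a partner of Polycomb repressive complex PRC2, and 487 kb from Cd83, a surface protein of dendritic cells. The next, with a score of 185, lay at 45878384 to 45878919 on chromosome 17, 138 kb from Vegfa, the vascular growth factor gene. It was 144 kb from 1600014C23Rik on the other side, and 0.93 kb from the lncRNA gene 4930542M03Rik. The third had a score of 153 and lay on chromosome 5, 172 kb from Srrm4, a neuronal splicing regulator, and 327 kb from Suds3, a subunit of the Sin3 deacetylase complex.

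The other 7 of the 10 highest scored from 116 to 147. They stood 70.1 kb from Gpbp1 (147), 64.5 kb from Disp3 (142), 51.4 kb from Tnfrsf21 (136) and 107 kb from Acpp (121). Another was 102 kb from Foxd1, a forkhead transcription factor gene, with a score of 116. Kcnrg and Dleu7 on chromosome 14 flanked 2 of them, with scores of 123 and 120. None of these 10 overlapped an HP1γ peak, against 1.56% of the 831 and 1.97% of all autosomal Adnp peaks. At such shares 10 peaks are too few to show a difference. The nearest HP1γ peak to any of the 10 was 27.4 kb away, in the Gpbp1 to Mier3 interval.

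The 10 most isolated peaks lay 542 to 1348 kb from protein-coding genes, and their scores ran from 9.10 to 29.2. The farthest (13.0) stood 1348 kb from Got2 on chromosome 8, with the cadherin gene Cdh8 on its other side. Cadherin or protocadherin genes, which encode cell adhesion molecules, flanked 4 of the 10: Got2 to Cdh8, Cdh6 to Cdh9 (1234 kb, 10.0), Pcdh20 to Pcdh9 (906 kb, 9.10) and Cdh8 to Cdh11 (635 kb, 29.2). The Pcdh20 to Pcdh9 interval, at 4542 kb, was the longest that held any of the 831. Cadherin and protocadherin genes also bounded very long intervals with no distant peak, such as Olfm4 to Pcdh17, Cntnap5b to Cdh20 and Pcdh7 to G6pd2. The 4 of 10 were not set against a share over intervals of like length, so they show no trait of these peaks. A peak between Myc, a growth-promoting transcription factor gene, and Gsdmc lay 814 kb from a protein-coding gene (22.9) but 3.96 kb from the lncRNA gene Gm30113. The others stood beside Prmt6 (1124 kb, 22.6), Dpp10 (695 kb, 10.3), Dsel (588 kb, 14.1), Rps29 (566 kb, 19.3) and Gm4868 (542 kb, 28.2).

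Among the values compared, the share of peaks with a near Adnp neighbour differed most clearly. Another Adnp peak lay within 10 kb of 203 of the 831 (24.4%), against 45.8% of the others and 44.6% of all autosomal Adnp peaks. The share was lower in 19 of 19 autosomes, by 21.5 ± 2.51 percentage points (SE, n = 19) on average. The permutation test gave an adjusted p of 5e-05, from 1e-05, the smallest that 100000 resamples can give. Shares ranged over autosomes from 0 to 43.6% for distant peaks and from 33.6 to 54.7% for the others. The median distance to the nearest other Adnp peak was 36.6 kb for distant peaks and 12.1 kb for the others. A wider window did not remove the gap: 58.5% against 81.7% had another Adnp peak within 50 kb. Adnp density was 1.12 peaks per Mb in sequence far from genes and 8.47 in the rest of the autosomes. A fixed window meets fewer peaks where density is lower, and no share expected from density was computed. The permutation test therefore cannot separate clustering from density, and whether distant peaks are less clustered for their density was not tested.

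**Figure D3:**
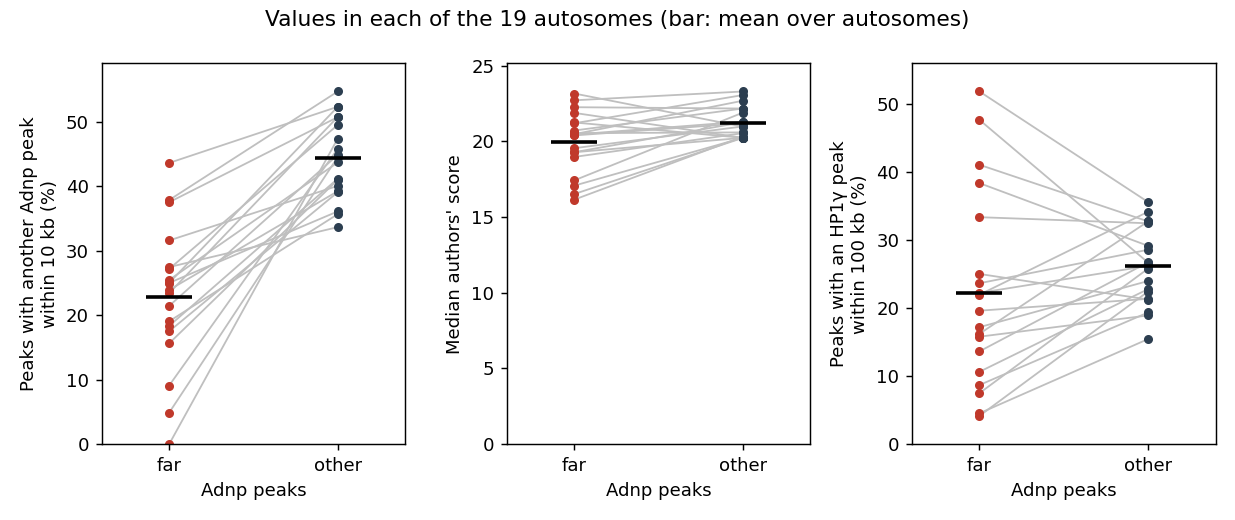
Values of distant (far) and other Adnp peaks in each of the 19 autosomes, joined by lines, with bars at the mean over autosomes: the share with another Adnp peak within 10 kb, the median score, and the share with an HP1γ peak within 100 kb. The first is lower for distant peaks in 19 autosomes, the second in 15 and the third in 13.

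Peaks joined at gaps of up to 10 kb left 645 distant peaks as the only distant one of their group, while 58 groups held 2, 19 held 3, 2 held 4 and 1 held 5. The group of 5 spanned 119584031 to 119603743 on chromosome 5, inside the stretch between Med13l, a Mediator subunit gene, and Tbx3, a T-box transcription factor gene. Its 5 distant peaks scored 109, 26.9, 17.8, 22.1 and 10.3. The whole group held 9 Adnp peaks, and those not counted as distant scored 133, 9.62, 71.2 and 14.0. They lay 806 to 810 kb from Med13l in an interval of 905 kb, so they too passed the 50 kb criterion. By the rule used here, such peaks are left out only for overlapping an lncRNA gene. The peak of 109 was thus the highest of those counted as distant but not of the group. A group of 4 at 111550020 to 111560721 on chromosome 13, between Gpbp1 and Mier3, included the peak at the start of Gm15290 shown above and reached 147. The other group of 4, between Mfge8 and Abhd2 on chromosome 7, reached 34.2.

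Distant peaks were also counted over whole intervals, with no expected count by length to compare with. The autosomes held 2476 intervals longer than 100 kb between neighbouring protein-coding genes, the only ones in which the distance criterion can be met, and 472 of them (19.1%) held a distant peak. In 292 of these there was 1, and 26 intervals with 5 or more held 155 of the 831. The share of intervals occupied was 12.4% at 100 to 200 kb, 24.5% at 200 to 500 kb, 26.5% at 500 to 1000 kb and 21.1% above that. The share did not rise steadily with length, and the 246 longest intervals held 89 of the peaks.

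The 5 richest intervals held 7 to 9 distant peaks each. Thap1 to Zfp703 on chromosome 8, both genes of zinc finger proteins, spanned 813 kb with 9 (scores 13.3 to 48.5, median 22.7). Ubl3 to Katnal1 on chromosome 5 had 9 in 319 kb (9.39 to 48.5, median 20.2). Med13l to Tbx3 had 8 in 905 kb (10.3 to 109, median 23.7), and 6 of them lay within 110 kb of Tbx3. Mn1 to Cryba4 on chromosome 5 had 7 in 789 kb (6.27 to 38.2, median 20.7). Slc22a12, a urate transporter gene, and Rps6ka4, a kinase gene, bounded 7 in 286 kb on chromosome 19 (8.90 to 50.9, median 13.1). The intervals Sox2 to Atp11b and Tfap2c to Bmp7 also held 7 and come after these in alphabetical order.

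**Figure D4:**
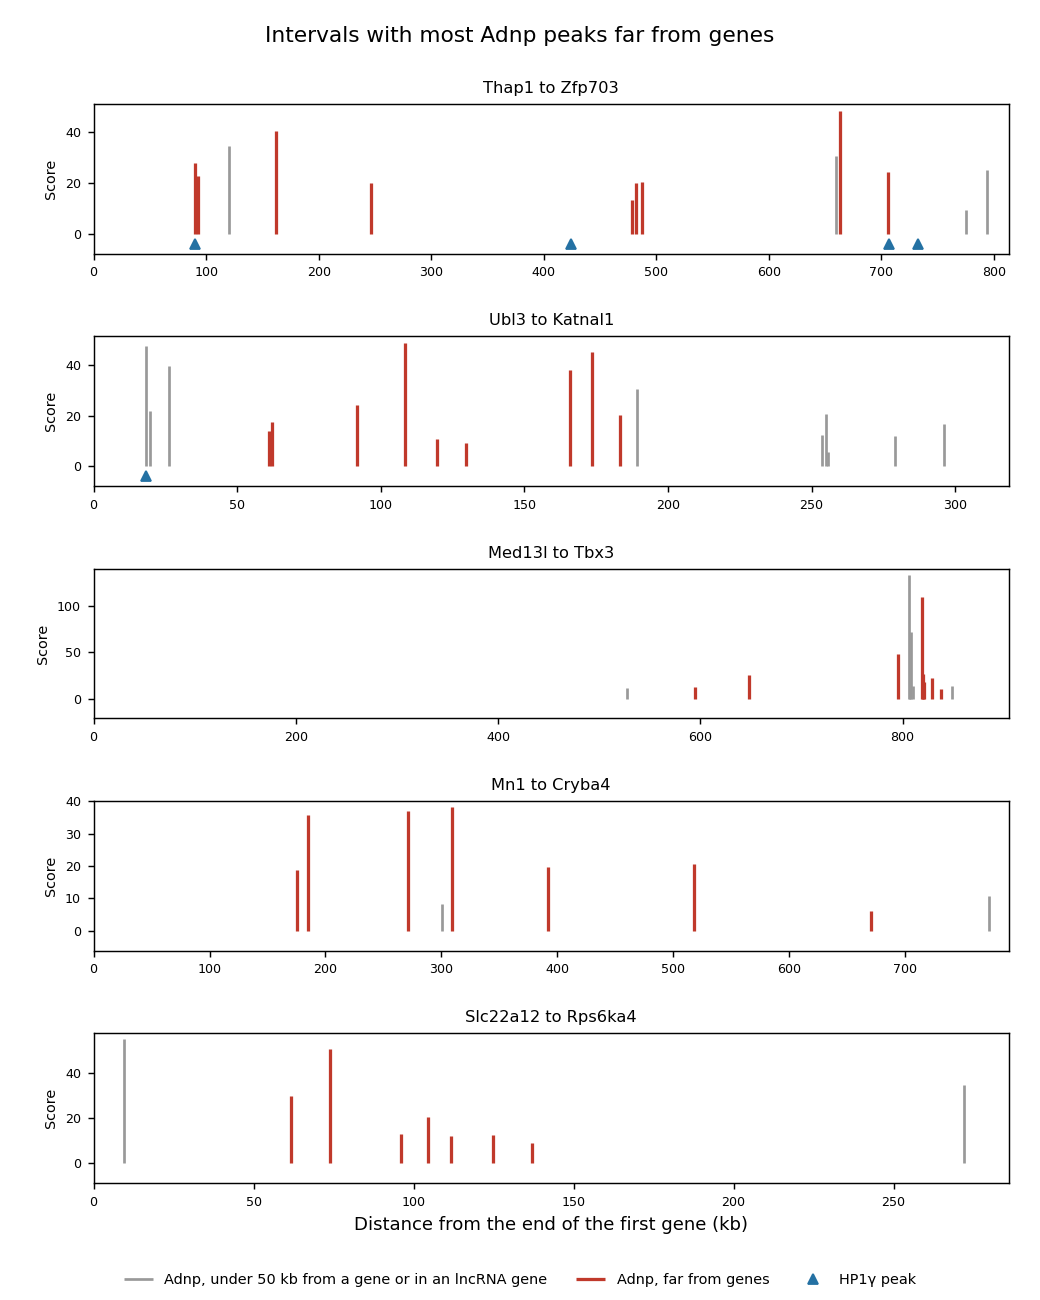
Authors' score of each Adnp peak against its distance in kb from the end of the first gene, in the 5 intervals with most distant peaks; red lines are distant peaks, grey lines the other Adnp peaks of the interval, and blue triangles HP1γ peaks. Distant peaks spread over most of the Thap1 to Zfp703 and Mn1 to Cryba4 intervals but crowd towards Tbx3 in the Med13l to Tbx3 interval, which has no HP1γ peak.

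Flanking genes were then read against lists of genes by role. A gene from a list of developmental transcription factors, which specify cell types in the embryo, was the nearest protein-coding gene on either side of 86 distant peaks (10.3%, Wilson 8.46 to 12.6). Over all 7502 autosomal Adnp peaks between genes the share was 244 (3.25%). Of the 105 listed genes, 101 were found in the annotation, and 38 of them flanked a distant peak. Their intervals were longer than most, with a median of 452 kb against 228 kb over all intervals above 100 kb. Intervals beside a listed gene held a distant peak in 42 of 126 cases (33.3%), against 19.1% of all. At matched length the shares were 26.7% against 12.4% at 100 to 200 kb, 35.3% against 24.5% at 200 to 500 kb, 43.6% against 26.5% at 500 to 1000 kb and 21.7% against 21.1% above that. The values above 1 Mb were therefore close, and no test was made of any of these shares.

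Tbx3 flanked the most distant peaks of that list, 9, of which 1 lay on its other side towards Tbx5, 54.7 kb from Tbx3, with a score of 35.4. Sox2 and Zfhx3 followed with 8 each, Tfap2c with 7, and Nr5a2 and Tshz2 with 6 each. Sox2 encodes a core pluripotency and neural transcription factor. Between Sox2 and Atp11b on chromosome 3 the scores, in order of position from 34754818 to 35438183, were 17.6, 36.1, 15.9, 16.2, 14.7, 10.2 and 8.26. The 2 peaks farthest from Sox2, at 655 and 785 kb, had the lowest scores. The remaining peak, on the Dnajc19 side and 203 kb from Sox2, scored 23.1. No HP1γ peak lay within 1.9 Mb of any of the 8.

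Tfap2c, an AP-2 transcription factor gene of trophoblast and germ cells, shared an interval on chromosome 2 with Bmp7, a growth factor gene. Scores there were, by position, 22.7, 57.5, 34.0, 14.7, 16.5, 19.3 and 24.1. The highest was 63.2 kb from Tfap2c and 246 kb from Bmp7. Nr5a2, a nuclear receptor gene, had 2 peaks on the Zfp281 side (15.6 and 15.2) and 4 on the Ptprc side (7.65, 6.76, 12.8 and 36.2). Tshz2, a zinc finger gene, lay 509 to 590 kb from its 6 peaks, all of them closer to Zfp64, with scores of 10.0 to 36.3. Zfhx3, a homeobox gene, had 6 on the Psmd7 side and 2 on the Pmfbp1 side, with scores of 9.32 to 34.2.

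Genes of the pluripotency network, expressed in embryonic stem cells and used to define that state, flanked 31 distant peaks (3.73%, Wilson 2.64 to 5.25). The share was 2.29% of all peaks outside protein-coding genes. Of 26 genes found, 9 flanked a distant peak. All of these but Tet2 and Zfp42, with 1 peak each, are in the developmental list too. The peaks are thus largely those already counted there, not a separate result. Intervals above 100 kb beside such genes held a distant peak in 12 of 18 cases (66.7%), against 19.1% of all. Their median length was 213 kb. By length, 4 of 8 were occupied at 100 to 200 kb (12.4% of all) and 2 of 3 at 200 to 500 kb (24.5%). Above that, 4 of 4 were occupied at 500 to 1000 kb (26.5%) and 2 of 3 beyond (21.1%). Sall4, a zinc finger transcription factor gene, shared 3 peaks with Zfp64, which scored 98.0, 19.3 and 16.8 and lay 56.8 to 67.4 kb from Sall4. Klf4 had 1 peak (54.4) at 70.6 kb, with Rad23b closer on the other side, and Klf5 had 1 (14.1) at 73.1 kb. With 18 intervals the share is imprecise, and it was not tested.

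Neuronal adhesion and synapse genes, many of which sit in gene deserts, flanked 45 distant peaks (5.42%, Wilson 4.07 to 7.17), against 2.60% of all peaks outside protein-coding genes. Their intervals had a median length of 614 kb, yet 30 of 187 (16.0%) held a distant peak, below the 19.1% of all intervals. In each length class under 1 Mb the share was below that of all intervals, for example 15.4% against 24.5% at 200 to 500 kb, and above 1 Mb it was 25% against 21.1%. The genes with most distant peaks were Adgrl1 and Kcnrg (4 each) and Cdh8, Cntnap4, Grin2a and Unc5cl (3 each). Kcnrg and Unc5cl entered the list by the start of their symbols: Kcnrg encodes a regulator of potassium channels. Olfactory and vomeronasal receptor genes, which are arranged in large clusters, flanked 2 distant peaks (0.241%, Wilson 0.066 to 0.873), against 0.680% of all peaks outside protein-coding genes. Both lay beside Olfr267, and 1 of 69 intervals beside receptor genes (1.45%) was occupied.

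An HP1γ peak was overlapped by 13 of the 831 distant peaks (1.56%, Wilson 0.916 to 2.66), against 1.99% of the other Adnp peaks and 1.97% of all autosomal ones. The mean difference over autosomes was -0.721 ± 0.422 percentage points (SE, n = 19), with distant peaks lower in 15 of 19. It did not pass the permutation test (adjusted p = 0.174). Set against peaks between genes and under 50 kb from one, the difference was -1.02 points and passed the permutation test (adjusted p = 0.0419), and without chromosome 8 it was -0.932 points and passed (adjusted p = 0.0496). With neighbouring peaks joined it was -1.53 points and passed as well. Joined regions are longer and formed more often among the other peaks, so that value is not separate from the difference in neighbours. HP1γ density, which was lower far from genes, was not taken into account in any of these settings. Of the 13, 5 lay on chromosome 8, which held 81 of the 831.

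The distant Adnp peaks on HP1γ peaks scored 9.32 to 62.5, with a median of 24.1. The highest (62.5) stood between Xkr9 and Eya1 on chromosome 1 and the next (52.8) between Ankrd28 and Galnt15 on chromosome 14. Others were between Adgre5 and Adgrl1 (38.5), Mfge8 and Abhd2 (34.2), Abca1, a cholesterol transporter gene, and Slc44a1 (24.1), and Akr1d1 and Trim24 (23.5). Thap1 to Zfp703, the richest interval, held 2 of the 13 (28.1 and 24.4). Low scores were found between 1700015G11Rik and Luzp2 (15.4), Unc5b and Pcbd1 (13.9), 1810013L24Rik and Grin2a (10.0), Ednra and Ttc29 (9.64), and Zfhx3 and Pmfbp1 (9.32). The peaks beside Xkr9, Unc5b and Zfhx3 were named after their values were seen. At the median the 13 HP1γ peaks were 447 bp wide, against 305 bp for all autosomal ones. They were chosen by overlap, which wider peaks meet more easily, and the width was not tested. By distance to the nearest gene, 1 of the 13 was in the class of 50 to 75 kb, which holds 281 of the 831, and 7 were among the 167 at 75 to 100 kb.

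Read from the HP1γ side, 14 of the 341 HP1γ peaks far from genes (4.11%) overlapped an Adnp peak, against 289 of the other 1653 (17.5%). Adnp density was itself 1.12 peaks per Mb far from genes and 8.47 elsewhere. No overlap expected from density was computed, and the difference was not tested. The name of this list limits it to HP1γ peaks without the Adnp motif, so its overlap with Adnp does not speak for all HP1γ peaks.

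At wider windows the distant peaks also had HP1γ neighbours less often, though not beyond the spread over autosomes. HP1γ density was 0.46 peaks per Mb far from genes and 0.99 elsewhere, and no share expected from density was computed. Within 10 kb 38 had one (4.57%), against 6.27% of the others and 6.17% of all. Within 100 kb 196 had one (23.6%), against 26.3% of the others and 26.2% of all. The mean difference over autosomes at 100 kb was -3.85 ± 2.61 points (SE, n = 19), lower in 13 of 19, and did not pass the permutation test (adjusted p = 0.194). Peaks 100 kb or more from genes differed by -10.9 points (permutation test, adjusted p = 0.008), while at 25 kb the difference was 0.617 points (adjusted p = 0.917). The median distance to the nearest HP1γ peak was 394 kb for distant peaks and 288 kb for the others.

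**Figure D5:**
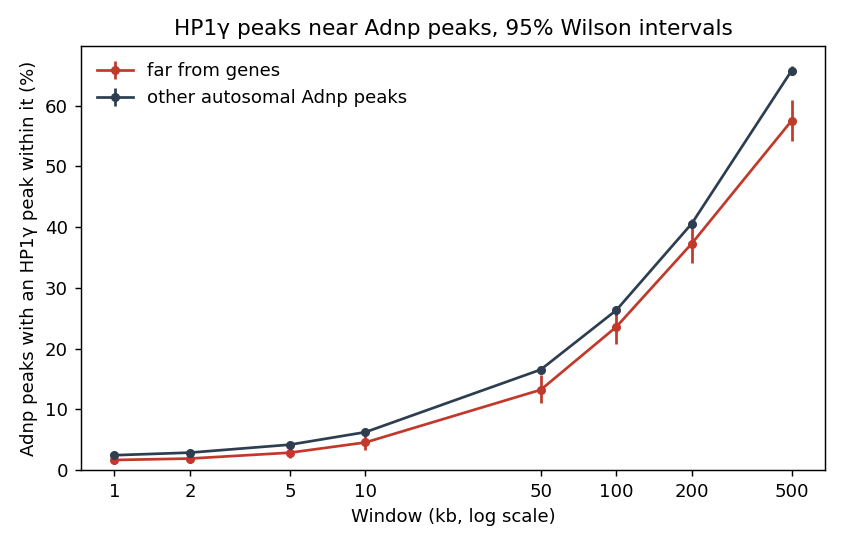
Percent of Adnp peaks with an HP1γ peak within windows of 1 to 500 kb (log scale), for the 831 distant and the 14072 other autosomal peaks, with 95% Wilson intervals that cover counting error only. The distant peaks lie lower at each window, for example at 10 kb (4.57% against 6.27%) and at 500 kb (57.5% against 65.8%). HP1γ density, also lower far from genes, is not taken into account.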

How the data were processed

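Peak positions and, for Adnp, a score per peak were taken as deposited by the authors. The HP1γ list holds a score of 0 throughout and was used for positions only. Per the submitters' processing notes, which give no roles, bcl2fastq 1.17, Bowtie 1.0.0, STAR 2.5.0a and MACS2 were used with mm10 (GRCm38). No source used here gives the kind of score or its threshold. Peak numbers in the deposited Adnp list run to 31188 although it holds 15026 peaks, and 359 of these follow the part sorted by position.

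Starts were shifted by 1 to count from 1. Distances run between nearest edges to genes of the RefSeq GRCm38.p6 table on chromosomes 1 to 19 (20560 protein-coding, 12324 lncRNA), leaving out models that start before 3 Mb. Members and other autosomal Adnp peaks were compared within each of 19 autosomes by a two-sided permutation test (100000 resamples, signs flipped, Benjamini-Hochberg over 5 results, threshold 0.05), tested on simulated data. Peaks are not replicates, and the autosome is the unit, so p-values speak of these lists, not of cell cultures. Members and gene lists were chosen with earlier results of these data known. Named genes flank the 10 highest, the 10 farthest and up to 10 peaks on HP1γ peaks, the 5 richest intervals, the 3 peaks on each side of the threshold, and up to 6 genes per list. Alternatives changed the threshold, comparison peaks, windows, score range and joining of peaks. Other assays of the series were not used. Python 3.11.15, NumPy 2.4.6, pandas 2.3.3, SciPy 1.17.1 and matplotlib 3.10.9 were used.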

Additional observations from a re-analysis of the deposited data

How the results depend on the processing

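The lower share of distant peaks with an Adnp neighbour kept its direction and its side of the threshold under each alternative run. The score difference lost its call at 25 kb (-0.815) and in the higher-scoring part of the list (-0.016). The latter setting selects on the score itself, so it cannot show whether the score difference holds. The width difference passed the test against between-gene peaks under 50 kb (-16.8 bp), at 100 kb (-17.6 bp) and with peaks joined (-30.4 bp). The HP1γ overlap difference passed against between-gene peaks (-1.02 points), with peaks joined (-1.53 points) and without chromosome 8 (-0.932 points, permutation test, adjusted p = 0.0496). The joined values for width and overlap partly restate the difference in neighbours, because the other peaks were joined more often into longer regions. The HP1γ difference within 100 kb passed at a 100 kb threshold (-10.9 points) and changed sign at 25 kb (0.617 points). The cause was not tested. The count of 831 became 383 at 100 kb, 1673 at 25 kb and 408 in the higher-scoring part, as fewer or more peaks qualify. Leaving out each autosome gave -1.47 to -1.10 for score, -7.14 to -2.58 bp for width, -22.3 to -20.1 points for Adnp neighbours, -0.932 to -0.589 for HP1γ overlap and -5.23 to -3.05 for HP1γ within 100 kb. Leaving out the peaks after the sorted part was chosen after seeing the data and moved no result across the threshold. No paired analysis was possible because neither list holds values per replicate. Depth is unknown, so a missing peak far from genes does not show absence of binding.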

Other observations

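Of the 472 intervals above 100 kb that held a distant Adnp peak, 136 (28.8%) also held an HP1γ peak, against 297 of 2004 (14.8%) of the intervals without one. The shares were 20.6% against 12.7% at 100 to 200 kb, 28.4% against 12.4% at 200 to 500 kb, 30% against 14.1% at 500 to 1000 kb and 50% against 34.0% above that. These shares were not tested, and the HP1γ peaks counted are at any position in the interval. The Akr1d1 to Trim24 interval on chromosome 6, between a steroid reductase gene and a gene of a chromatin-binding TRIM protein, held 6 distant Adnp peaks, 9 Adnp peaks in all and 10 HP1γ peaks, of which 1 lay on a distant Adnp peak. Plekhb2 to Hs6st1 on chromosome 1 held 5 distant Adnp peaks and 9 HP1γ peaks. Both intervals were named after their values were seen.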
